A study of Mus musculus with 6 samples.

Results

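The genes described here are 40 transcription factors and cofactors of fat cell formation, chosen by symbol: PPARG, the C/EBP, KLF, EBF, NFI and STAT5 families, several lineage factors, and coregulators. All 40 had a row among the 16423 gene symbols of the deposited expression table, and 37 of them had a mean of at least 1 FPKM (fragments per kilobase of gene, scaled to the library's depth) and entered the test. The cells were C3H10T1/2, a mouse mesenchymal line that can turn into adipocytes. Confluent cells received isobutylmethylxanthine (0.5 mM), dexamethasone (1 µM), insulin (850 nM), triiodothyronine (1 nM), indomethacin (125 nM) and rosiglitazone (1 µM) for 2 days, then triiodothyronine, insulin and rosiglitazone at the same concentrations for 2 more. On day 4 they were transfected with a control siRNA (siNC, genotype given as WT) or with siRNAs targeting YBX1 (siYBX1, given as YBX1 knockdown), and RNA was taken 48 h later, with 3 libraries in each group. Both groups thus carried the hormone cocktail and the PPARG ligand rosiglitazone, and the knockdown began after differentiation had been induced. The labels give neither the siRNA sequences nor their dose, and do not say whether replicates were separate cultures, so a p-value here reflects only how far these libraries varied, part of which may be technical.

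Fat cell formation runs through a cascade of transcription factors. C/EBPβ and C/EBPδ are induced early by the hormone cocktail and help switch on PPARG and C/EBPα, which then maintain each other and turn on the genes of lipid storage. PPARG is a nuclear receptor that binds DNA with a retinoid X receptor and is the target of rosiglitazone. Around it, KLF factors either promote or restrain the cascade, EBF and NFI factors help open chromatin at adipocyte and brown adipocyte genes, and coactivators (NCOA proteins, MED1) and corepressors (NCOR1, CTBP proteins, NRIP1) set how strongly the bound receptors act. YBX1, the protein whose mRNA was targeted, binds RNA and DNA and was named for the Y-box, a DNA element that holds an inverted CCAAT.

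The promoters below are shown because they belong to the member with the highest level (Pparg), to its late partner, which was low here (Cebpa), and to the called member with the lowest adjusted p (Klf13). They are the 250 bases before a transcription start in RefSeq's annotation of GRCm38.p6, printed along the gene's strand, for the start that overlapped no annotated exon of the gene in GENCODE vM21. That build is not the GRCm39 of the submitters' processing notes. Capitals mark CCAAT and its reverse complement ATTGG (the Y-box core), and CACCC and its reverse complement GGGTG (letters within the sites that KLF factors bind).
Pparg, start of the adipocyte form Pparg2, chr6:115421816-115422065, plus strand: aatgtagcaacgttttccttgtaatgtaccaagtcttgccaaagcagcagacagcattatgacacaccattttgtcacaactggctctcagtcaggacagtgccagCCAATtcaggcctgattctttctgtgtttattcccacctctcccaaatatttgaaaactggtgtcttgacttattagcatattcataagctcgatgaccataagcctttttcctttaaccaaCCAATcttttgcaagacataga
Cebpa, chr7:35119043-35119292, plus strand: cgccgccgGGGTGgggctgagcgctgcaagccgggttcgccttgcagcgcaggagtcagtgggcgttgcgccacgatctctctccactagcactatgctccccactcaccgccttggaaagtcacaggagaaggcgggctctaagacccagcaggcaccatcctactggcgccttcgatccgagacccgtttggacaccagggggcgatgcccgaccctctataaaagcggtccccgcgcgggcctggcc
Klf13, chr7:63938916-63939165, minus strand: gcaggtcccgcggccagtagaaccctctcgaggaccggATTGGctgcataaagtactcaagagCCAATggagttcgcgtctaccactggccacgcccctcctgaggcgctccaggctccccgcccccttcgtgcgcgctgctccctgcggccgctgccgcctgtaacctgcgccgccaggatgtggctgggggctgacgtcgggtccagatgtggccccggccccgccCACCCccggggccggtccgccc
The Pparg2 and Klf13 windows each held 2 CCAAT matches on either strand and the Cebpa window none. RefSeq's promoter entries matched 30 of the 40 members, with 43 windows in all. CCAAT, read on both strands, was present in 17 of these 43 windows (39.5%), against 33.8% of all 32851 promoter windows of that length. CACCC, read on both strands, was in 28 of 43 (65.1%), against 52% of all. A match describes letters in a window and is not a binding site.

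The knockdown itself was checked in Ybx1. Its mRNA was 133 ± 2.98 FPKM in siNC (SD, n = 3) and 62.9 ± 4.50 FPKM in siYBX1 (SD, n = 3), 47.3% of the control level (log2 fold change -1.07 with an SE of 0.06; limma's adjusted p = 3.98e-06). Exact permutation of the 6 libraries (two-sided) returned p = 0.1, and 3 against 3 can go no lower. The library totals behind the FPKM values were 31957411 to 35410308 reads. Of the adipocyte markers 5 of the 6 in the table reached 1 FPKM. The 6 summed to 2040.0 to 2874 FPKM in siNC and 2549 to 3027 in siYBX1, overlapping ranges carried mostly by Fabp4 and Adipoq. None of the 5 was called. Their log2 fold changes were positive for Fabp4 (0.26) and Lipe (0.03) and negative for Cidec (-0.25), Plin1 (-0.18) and Adipoq (-0.06). Of the brown adipocyte markers only 3 of 7 reached 1 FPKM (Cox8b, Cidea and Cox7a1). Ppargc1a was at 0.729 ± 0.0630 FPKM in siNC (SD, n = 3), Prdm16 near 0, and Elovl3 was listed at 0 in each siNC library. Of 5 markers of mesenchymal progenitors 3 reached 1 FPKM. The 5 summed to 539 to 559 FPKM in siNC and 497 to 519 in siYBX1, ranges that did not overlap. Ly6a carried that sum, with means of 491 FPKM in siNC and 449 in siYBX1 (adjusted p = 0.126, limma). Pdgfra and Pdgfrb were also lower and not called (adjusted p = 0.686 and 0.0811, limma). Of the markers under 1 FPKM, Cd34 was lower and Thy1 higher in siYBX1. The sum of 5 smooth muscle and myofibroblast markers moved with the group, from 571 to 640.2 FPKM in siNC to 1985 to 2084 in siYBX1, carried by Acta2, Myl9 and Tagln, while the defining markers Cnn1 and Myh11 were at 0.10003 and 0.134 FPKM in siNC and at 0.0735 and 0.0887 in siYBX1. Sums of osteoblast markers (4.33 to 4.67 FPKM in siNC and 3.07 to 3.46 in siYBX1, 1 of 4 at 1 FPKM or more) and of chondrocyte markers (5.06 to 6.82 and 3.61 to 4.47, 1 of 2) did not overlap either. The part of the progenitor, smooth muscle, osteoblast and chondrocyte markers in the results below was not tested. In bulk RNA, fewer cells of a type and less RNA per cell cannot be told apart.

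Levels of the members ran from 0.0872 FPKM (Ebf2) to 87.4 FPKM (Pparg) in siNC. Pparg stood at the top with 87.4 ± 7.08 FPKM in siNC (SD, n = 3), followed by the corepressor gene Ctbp1 at 46.6 ± 1.57. Nfic (32.2 ± 1.22), Cebpb (31.1 ± 1.83), Nfix (30.5 ± 1.19) and Ncor1 (29.5 ± 2.63) came next, and neighbours among these 4 did not differ beyond their spread. The 3 members below the filter were Cebpa, Zfp521 and Ebf2. Zfp521, a zinc finger protein that restrains adipocyte commitment, was at 0.367 ± 0.0496 FPKM in siNC and 0.356 ± 0.00717 in siYBX1 (SD, n = 3 each). Ebf2, an early factor of the brown lineage, was at 0.0872 ± 0.0172 and 0.0741 ± 0.0459 FPKM, on 5 to 22 reads per library. The groups overlapped for all 3. Few reads limit what can be seen for Ebf2 and Cebpa, whereas Zfp521 had 577 to 743 reads per library and a low FPKM because the length it was divided by was long.

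**Figure D1:**
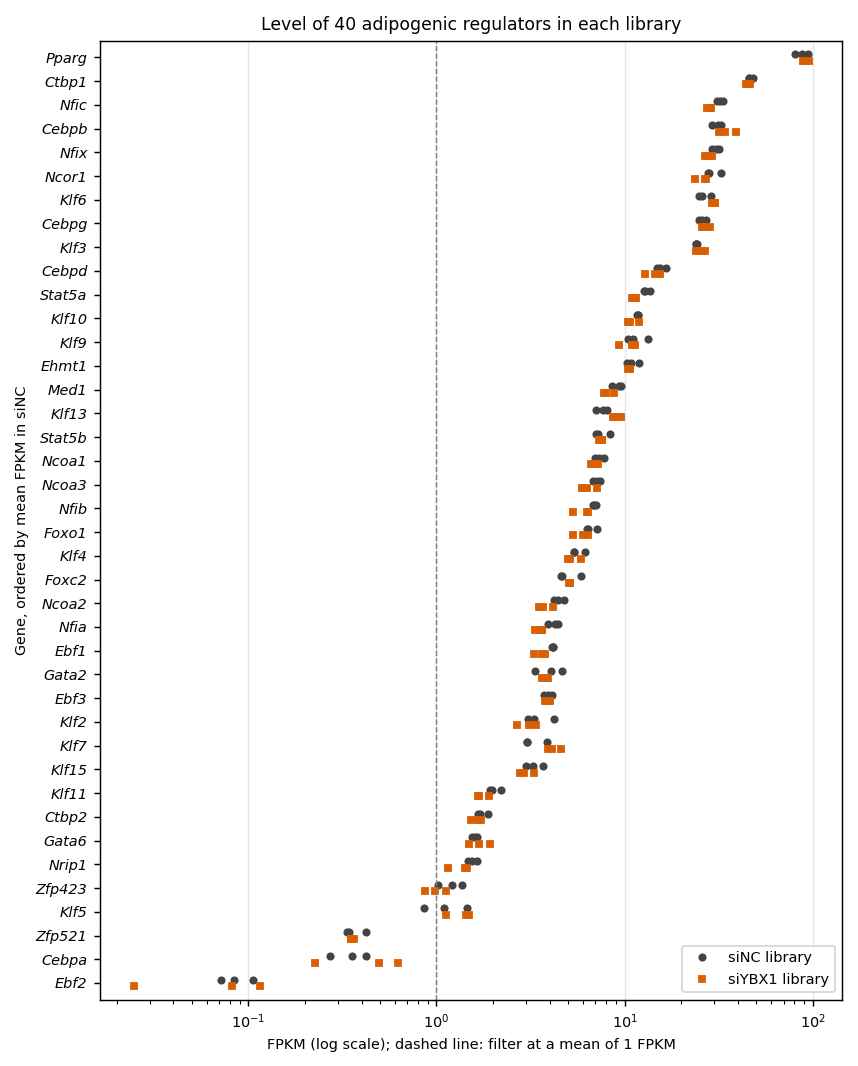
FPKM on a log axis for the 40 members, ordered by their mean in siNC, with 3 siNC libraries as dark circles and 3 siYBX1 libraries as orange squares; the dashed line marks the filter at 1 FPKM. Pparg lies highest at 87.4 FPKM in siNC, and Zfp521, Cebpa and Ebf2 lie left of the filter.

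FPKM depends on the gene length the submitters divided by, and that length could be read back from the steps of the values. For 6 members it was over 1.5 times the exonic length in GENCODE vM21, and for 8 it was under 1 / 1.5 of it. The largest gaps were 51206 against 7030 bases for Zfp521, 39810 against 9756 for Ebf1 and 20042 against 6220 for Ctbp2. If all reads of Ebf1 lay in its vM21 exons, its siNC level would be 16.9 FPKM in place of 4.14, and that of Ctbp2 5.64 in place of 1.75. Klf4 would move from 5.62 to 13.9 and Klf15 from 3.32 to 9.11 FPKM. The order of levels between genes therefore holds only for the submitters' lengths. The filter at 1 FPKM and the log2(FPKM + 1) scale depend on these lengths too: Zfp521 would be at 2.67 FPKM in siNC at its vM21 length and so would pass the filter.

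The adipogenic regulators had a median change about as large as that of all tested genes, with a smaller share of calls. Between siYBX1 and siNC the members' median absolute log2 fold change was 0.13, against 0.11 over all tested genes. Of 37 tested members 4 passed the threshold of an adjusted p below 0.05 (10.8%), against 20.6% of the 10341 genes tested. Klf7 and Klf13 rose and Stat5a and Nfic fell, where 9.54% of all tested genes rose and 11.1% fell. Every log2 fold change lay between -0.20 and 0.27, and for each of the 37 the 95% confidence interval lay within ±0.5, as it did for 92.2% of all tested genes. The members' median log2 fold change was -0.09, against -0.01 for all tested genes, and 27 of 37 were negative (73.0%), against 52.8%. The groups did not overlap for 13 of 37 members, 3 higher and 10 lower, against 40.9% of all tested genes (19% higher and 21.9% lower). All fold changes are on the log2(FPKM + 1) scale, which understates changes of low genes.

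The 4 calls depended on which libraries were kept. No member passed without siNC replicate 3, without siYBX1 replicate 1 or without siYBX1 replicate 2. Without siNC replicate 2 Nfic alone passed, and without siYBX1 replicate 3 Klf13 alone. Leaving out siNC replicate 1 left Klf7, Klf13 and Stat5a called and added Klf6. With each library rescaled to TPM, 3 members fell and none rose. A correction for gene length left 3 that rose (Klf6, Klf7 and Klf13) and none that fell, where 20.4% of all genes were called (10.4% higher and 9.99% lower). With voom on the read counts recovered from the FPKM values 8 members were called, 2 higher and 6 lower, against 20.3% of all genes (8.84% higher and 11.4% lower). Over all genes the share of calls that were higher also moved with scaling, from 987 higher and 1145 lower to 662 and 1573 with TPM. Their total of 2132 calls was 1199 without siYBX1 replicate 1 and 1306 without siYBX1 replicate 2.

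**Figure D2:**
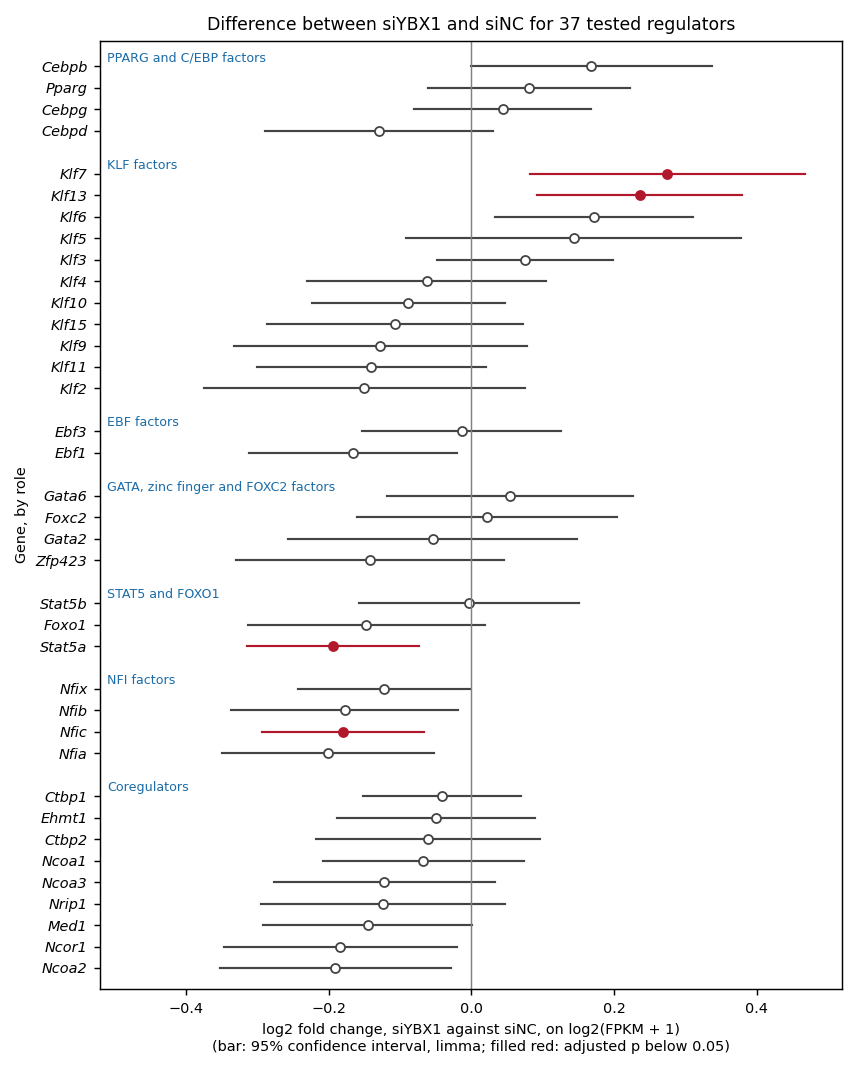
Log2 fold change of siYBX1 against siNC for the 37 tested members, grouped by role, as a point with its 95% confidence interval (limma); filled red points have an adjusted p below 0.05. All 9 coregulators and all 4 NFI factors lie left of 0, and Klf7 at 0.27 and Klf13 at 0.24 lie farthest right.

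Pparg and the C/EBP genes did not pass. Pparg was at 80.1, 94.3 and 87.9 FPKM in siNC replicates 1 to 3 and at 95.2, 89.2 and 92.7 FPKM in siYBX1 replicates 1 to 3. The groups overlapped, with siNC replicate 1 lowest of all 6. Its log2 fold change of 0.08 had an SE of 0.06 (95% confidence interval -0.06 to 0.22, adjusted p = 0.389, limma). These are gene-level values, so the forms Pparg1 and Pparg2, which start at different promoters, cannot be told apart.

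Cebpb, an early factor of the cascade, was at 31.4, 29.1 and 32.7 FPKM in siNC and 39.3, 34.4 and 31.8 FPKM in siYBX1. The highest siYBX1 library was replicate 1, and replicate 3 lay within the control range. The log2 fold change of 0.17 had an SE of 0.08 (95% confidence interval -0.00 to 0.34, adjusted p = 0.139, limma). Cebpd, its early partner, was at 16.7, 14.9 and 15.4 FPKM in siNC and 12.8, 15.4 and 14.5 in siYBX1. These ranges overlapped and the log2 fold change of -0.13 had an SE of 0.07 (limma's adjusted p = 0.220). Cebpg, which pairs with other C/EBP proteins and lacks an activation domain of its own, was at 25.9 ± 0.991 and 26.8 ± 1.35 FPKM (SD, n = 3 each; adjusted p = 0.612, limma). In GENCODE vM21, exons of genes on the opposite strand cover 20.7% of the exonic bases of Cebpb and 15.0% of those of Cebpd, and the labels do not say whether counting used the strand.

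Cebpa, the late partner of PPARG in mature fat cells, was low in these libraries. It was at 0.273, 0.421 and 0.355 FPKM in siNC and 0.226, 0.493 and 0.626 FPKM in siYBX1, which came from 19 to 55 reads per library. The siYBX1 libraries held both the lowest and the highest value, and the gene was below the filter (adjusted p = 0.649 without a filter, limma). The length behind its FPKM was 2636 bases, the same as its exonic length in vM21, and a gene on the opposite strand covered 1.93% of it. In the same control libraries the adipocyte genes Fabp4 and Adipoq were at 1481 ± 299 and 617 ± 129.9 FPKM (SD, n = 3).

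**Figure D3:**
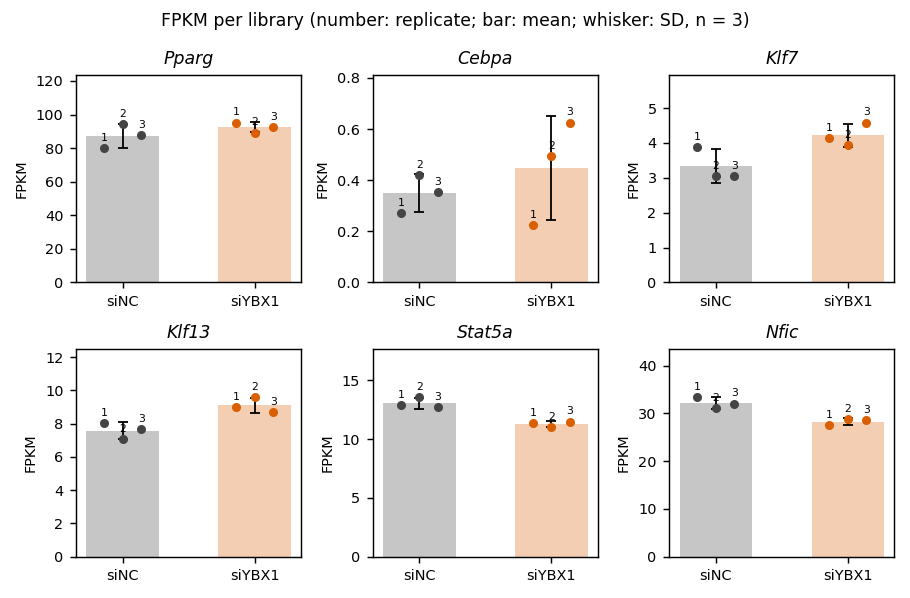
FPKM in each library for Pparg, Cebpa and the 4 called members, with the replicate number above each point, the group mean as a bar and the SD as a whisker (n = 3). The groups overlap for Pparg and Cebpa and do not overlap for Klf7, Klf13, Stat5a and Nfic, and the Cebpa axis ends below 1 FPKM.

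Of the 11 KLF factors 2 rose and none fell (18.2% called, against 20.6% of all tested genes), and 6 had a negative log2 fold change. Klf13, a family member reported to act upstream of PPARG, was at 8.03, 7.06 and 7.66 FPKM in siNC and 8.99, 9.61 and 8.72 FPKM in siYBX1. Every siYBX1 library lay above every siNC library, and the log2 fold change was 0.24 with an SE of 0.07 (limma's adjusted p = 0.0277). Its adjusted p ran from 0.0114 to 0.104 over 14 alternatives, 7 of which kept the call. Klf7, which restrains adipogenesis, was at 3.89, 3.04 and 3.05 FPKM in siNC and 4.13, 3.94 and 4.58 FPKM in siYBX1. The groups did not overlap, but siNC replicate 1 came close to the lowest siYBX1 library, and the log2 fold change was 0.27 with an SE of 0.09 (limma's adjusted p = 0.0476). The adjusted p of Klf7 ran from 0.00804 to 0.145 over 13 alternatives, and 5 kept the call. In vM21, 39.4% of the exonic bases of Klf7 are covered by exons of 2 genes on the opposite strand (Gm13748 and Gm26649), and without stated strand use their reads cannot be told apart from its own.

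Klf6, which promotes adipogenesis by repressing Dlk1, was at 28.9, 25.7 and 24.8 FPKM in siNC and 30.2, 29.1 and 30.4 in siYBX1. The groups did not overlap, but the adjusted p was 0.0751 (log2 fold change 0.17, limma). Without siNC replicate 1 the adjusted p was 0.00899 and after the length correction 0.0445. Klf5, which is induced early by C/EBPβ and C/EBPδ, was low, at 1.14 ± 0.294 and 1.35 ± 0.200 FPKM (SD, n = 3 each). Klf4, another early factor, was at 5.62 ± 0.449 and 5.34 ± 0.474 FPKM, and Klf9, which acts later, at 11.6 ± 1.57 and 10.5 ± 1.04. Klf15, which promotes expression of PPARG and of the glucose transporter GLUT4, was at 3.32 ± 0.352 and 3.00 ± 0.276 FPKM. Their adjusted p-values ran from 0.350 for Klf9 to 0.589 for Klf4 (limma).

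The remaining KLF members gave no call. Klf2, which represses the Pparg2 promoter, was at 3.53 ± 0.629 FPKM in siNC and 3.07 ± 0.354 in siYBX1 (log2 fold change -0.15, adjusted p = 0.314, limma). Klf3, which recruits CTBP corepressors, was at 24.1 ± 0.0546 and 25.5 ± 1.54 FPKM (log2 fold change 0.08, adjusted p = 0.359, limma). Klf10 and Klf11, which respond to TGF-beta, had log2 fold changes of -0.09 and -0.14. The summed level of the 11 KLF genes was 96.7 to 107 FPKM in siNC and 102 to 108 in siYBX1.

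The EBF, GATA and other lineage factors gave no call. Ebf1, an early B-cell factor that induces Cebpa and Pparg, was at 4.09, 4.15 and 4.17 FPKM in siNC and 3.65, 3.30 and 3.80 FPKM in siYBX1. All siYBX1 libraries lay below all siNC libraries, and the log2 fold change was -0.17 (adjusted p = 0.0967, limma). It was called with voom on recovered reads (adjusted p = 0.0215). Ebf3 was at 3.94 ± 0.182 and 3.89 ± 0.130 FPKM (SD, n = 3 each; log2 fold change -0.01). Gata2, a factor of preadipocytes that holds back PPARG, was at 4.01 ± 0.664 and 3.80 ± 0.153 FPKM, and Gata6 at 1.60 ± 0.0402 and 1.70 ± 0.223. Zfp423, which marks committed preadipocytes, was at 1.22, 1.36 and 1.02 FPKM in siNC and 0.872, 0.978 and 1.13 in siYBX1 (log2 fold change -0.14, adjusted p = 0.256, limma). Foxc2, a forkhead factor that raises brown fat genes when overexpressed, was at 5.05 ± 0.731 and 5.11 ± 0.0328 FPKM.

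Stat5a fell, and its paralog Stat5b did not pass. STAT5 proteins carry growth hormone and prolactin signals and promote adipogenesis. Stat5a was at 12.9, 13.6 and 12.7 FPKM in siNC and 11.4, 10.99 and 11.5 FPKM in siYBX1. The groups did not overlap, and the mean changed by -13.5% (log2 fold change -0.19 with an SE of 0.05; limma's adjusted p = 0.0302). Stat5b was at 7.54 ± 0.738 and 7.50 ± 0.183 FPKM (SD, n = 3 each; log2 fold change -0.00, 95% confidence interval -0.16 to 0.15). Whether the change of Stat5a differed from that of Stat5b was not tested. The adjusted p of Stat5a ran from 0.0164 to 0.101 over 14 alternatives, with 7 that kept the call, and was 0.0552 after the length correction. Foxo1, a forkhead factor restrained by insulin that represses PPARG, was at 7.17, 6.33 and 6.39 FPKM in siNC and 5.30, 6.02 and 6.37 in siYBX1 (log2 fold change -0.15, adjusted p = 0.185, limma).

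All 4 NFI genes had lower means in siYBX1, and 1 of them passed. NFI factors bind chromatin together with PPARG, and NFIA in particular supports the brown fat program. Nfic was at 33.5, 31.1 and 32.1 FPKM in siNC and 27.6, 28.7 and 28.6 FPKM in siYBX1. The groups were apart and the siYBX1 mean was 0.879 times the control mean (log2 fold change -0.18 with an SE of 0.05; limma's adjusted p = 0.0323). On the log2(FPKM + 1) scale Nfia had the largest change among members that were not called, from 4.45, 4.27 and 3.93 FPKM to 3.63, 3.35 and 3.63 FPKM, with no overlap (log2 fold change -0.20, adjusted p = 0.0567, limma). With a pseudocount of 0.1 the changes of Klf5 and Zfp423 were slightly larger than that of Nfia. Nfib was at 6.92 ± 0.148 and 6.02 ± 0.607 FPKM and Nfix at 30.5 ± 1.19 and 27.9 ± 1.15 FPKM (SD, n = 3 each), also without overlap, with adjusted p-values of 0.103 and 0.131 (limma). Of all tested genes 21.9% were lower without overlap, and of those of 6257 to 63925 bases 683 of 2068 were. The 4 NFI genes were all long, with 7429 to 14788 bases behind the FPKM. Each was highest in siNC replicate 1 among the controls. The summed level of the 4 genes was 72.1 to 76.6 FPKM in siNC and 64.2 to 67.7 in siYBX1. With voom on recovered reads 3 of the 4 fell (Nfia, Nfib and Nfic), where 11.4% of all genes fell, and after the length correction none did. The adjusted p of Nfic ran from 0.0172 to 0.117 over 14 alternatives, 7 of which kept the call.

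None of the 9 coregulators passed (2 had an unadjusted p below 0.05, and Ncoa2 was called with voom). Of all 10341 tested genes 20.6% passed and 3750 had an unadjusted p below 0.05 (limma). All 9 coregulators had a negative log2 fold change, from -0.19 to -0.04 with a median of -0.12. A negative value was found for 52.8% of all tested genes, and for 69.1% of those of 6257 to 63925 bases. The median length of the coregulators was 8569 bases. Among the coactivators, the largest change was that of Ncoa2, a partner of nuclear receptors, from 4.75, 4.44 and 4.23 FPKM to 3.51, 3.71 and 4.19 FPKM (adjusted p = 0.0885, limma). Its siYBX1 replicate 3 reached almost the lowest control. Ncoa1 was at 7.33 ± 0.422 and 6.94 ± 0.326 FPKM and Ncoa3 at 7.11 ± 0.277 and 6.47 ± 0.603 FPKM (SD, n = 3 each). Med1, the Mediator subunit that binds PPARG, was at 9.16 ± 0.511 and 8.19 ± 0.562 FPKM (adjusted p = 0.141, limma).

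Among the corepressors, Ncor1 was at 32.5, 27.7 and 28.2 FPKM in siNC and 26.7, 23.6 and 27.1 FPKM in siYBX1 (log2 fold change -0.18, adjusted p = 0.10004, limma). The groups did not overlap, and siNC replicate 1 stood above the other controls. Ctbp1 was at 46.6 ± 1.57 and 45.3 ± 1.02 FPKM and its paralog Ctbp2 at 1.75 ± 0.119 and 1.64 ± 0.0930 (SD, n = 3 each). Nrip1, a corepressor of genes for energy use, was at 1.55 ± 0.0915 and 1.35 ± 0.163 FPKM. Ehmt1, the histone methyltransferase of the PRDM16 complex, was at 11.9, 10.8 and 10.3 FPKM in siNC and 10.4, 10.7 and 10.7 in siYBX1. Each of the 9 genes was highest in siNC replicate 1 among the controls. Over the 37 tested members this was so for 27 (73.0%), against 42.2% of all tested genes and 57.3% of the longest 20% of them. Without that library 8 of 9 coregulators stayed negative, with a median of -0.10.

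Members were long genes, and long genes as a whole were lower in siYBX1. The length behind the FPKM had a median of 6396 bases over the 37 tested members, against 3437 over all tested genes, and 19 of the 37 lay in the longest 20% of all genes. Among those longest genes 69.1% of all genes had a negative log2 fold change, with a median of -0.07. Of the 19 long members 17 were negative, with a median of -0.12 (the exceptions were Klf7 and Klf13), and of the other 18 members 10 were negative, with a median of -0.05. Spearman's rho between length and log2 fold change was -0.40 over the 37 members and -0.27 over all tested genes. Genes share libraries and are not independent, so both are descriptions. After a loess correction for length the members' median was -0.04, that of the coregulators -0.05 and that of the NFI genes -0.11, and the log2 fold changes of Klf7 and Klf13 were 0.34 and 0.29.

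**Figure D4:**
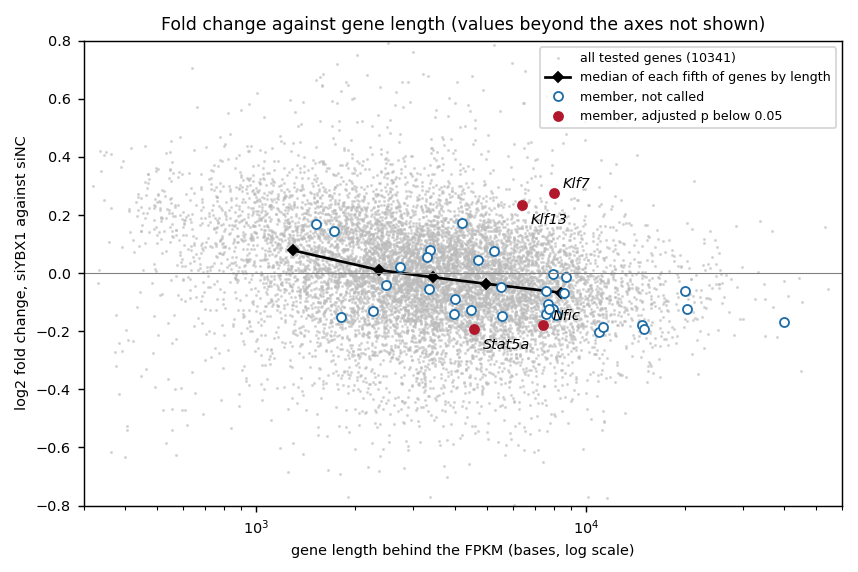
Log2 fold change of siYBX1 against siNC plotted against the gene length behind the FPKM (log axis): all tested genes in grey, medians of 5 equal classes of genes by length as black diamonds, members as open circles and called members in red. The black line falls from 0.08 in the shortest class to -0.07 in the longest, and Klf7 and Klf13 lie above it while most long members lie below 0.

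Other genes of the pathway were taken from 3 lists. Of 33 tested partners of the coregulators 1 rose and 6 fell (21.2% called, median log2 fold change -0.03), against 20.6% called and a median of -0.01 over all tested genes. Kat2b, the acetyltransferase PCAF, rose from 15.7 ± 0.967 to 18.6 ± 0.385 FPKM (SD, n = 3 each; adjusted p = 0.0166, limma), and was not called without siYBX1 replicate 2 or without siYBX1 replicate 3. Med13, of the kinase module of Mediator, fell from 11.3 ± 0.555 to 8.69 ± 0.575 FPKM (log2 fold change -0.34, adjusted p = 0.00537, limma) and stayed called under all 14 alternatives. Med12, of the same module, had a log2 fold change of -0.28 (adjusted p = 0.0280, limma), and lost the call without a filter, after the length correction and without siNC replicate 1, without siYBX1 replicate 1 or without siYBX1 replicate 2. The partner list's count of 7 was 4 without siNC replicate 1, 3 without siYBX1 replicate 1 and 2 without siYBX1 replicate 2.

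Of 44 other tested transcription factors of adipogenesis 2 rose and 6 fell (18.2% called, median log2 fold change -0.06), against 20.6% of all tested genes called. Hmga2, a chromatin protein of proliferating progenitors, had the largest rise, from 17.4, 16.4 and 17.7 FPKM to 25.2, 26.9 and 24.1 FPKM. Its groups were far apart (log2 fold change 0.54 with an SE of 0.06; limma's adjusted p = 0.000296), and it stayed called under all 14 alternatives. Cebpz, the other rise, had a log2 fold change of 0.18 (adjusted p = 0.0308, limma). It lost the call with TPM, with the replicate block and whenever any library other than siNC replicate 1 was left out. Id1, an inhibitor of basic helix-loop-helix factors, fell from 73.5 ± 4.44 to 56.9 ± 7.25 FPKM (adjusted p = 0.0116, limma). Without a filter Id1 was not called (adjusted p = 0.0707, limma). Bhlhe40, a repressor, was at 52.2, 31.7 and 32.0 FPKM in siNC and 22.2, 26.4 and 29.3 FPKM in siYBX1, with siNC replicate 1 far above the rest. Its log2 fold change of -0.52 (adjusted p = 0.0453, limma) went to -0.29 without siNC replicate 1. The call was lost without each siYBX1 library in turn, without a filter, with quantile normalization, with the replicate block and after the length correction. The count of 8 was 4 without siYBX1 replicate 1 and 4 without siYBX1 replicate 2.

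Of 33 tested target genes of PPARG and C/EBP factors 3 rose and 9 fell (36.4% called, median log2 fold change -0.09), against 20.6% of all tested genes called, with 9.54% higher and 11.1% lower. The largest falls were those of the lipid enzymes Lpin1 (-0.45) and Pnpla2 (-0.43), and the largest rises those of Angptl4, a lipase inhibitor (log2 fold change 0.36), and Plin2, a droplet coat protein (0.33), with adjusted p-values of 0.00184, 0.00189, 0.00441 and 0.0250 (limma). Plin2 was not called without a filter, with the replicate block or without each siYBX1 library in turn. The count of 12 was 5 without siNC replicate 3, without siYBX1 replicate 2 or without siYBX1 replicate 3. The count over all 10341 tested genes was then 1428, 1306 and 1711, against 2132 with all libraries. Without a filter 3 of the 38 target genes in the table were called, against 1241 of all 16423 genes. With the replicate block 5 were called, against 1346 of all tested genes. The count was 15 with TPM, with quantile normalization or without siNC replicate 1 (2235, 2030 and 2026 of all tested genes). It was 12 with a pseudocount of 0.1, 13 with a filter at 5 FPKM, 14 with voom and 11 after the length correction. Of all genes tested in those settings 2119, 1799, 2466 and 2112 were called. Without siNC replicate 2 or without siYBX1 replicate 1 the target count was 9 (1708 and 1199 of all tested genes). The gap between 36.4% and 20.6% therefore depended on the setting.

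**Figure D5:**
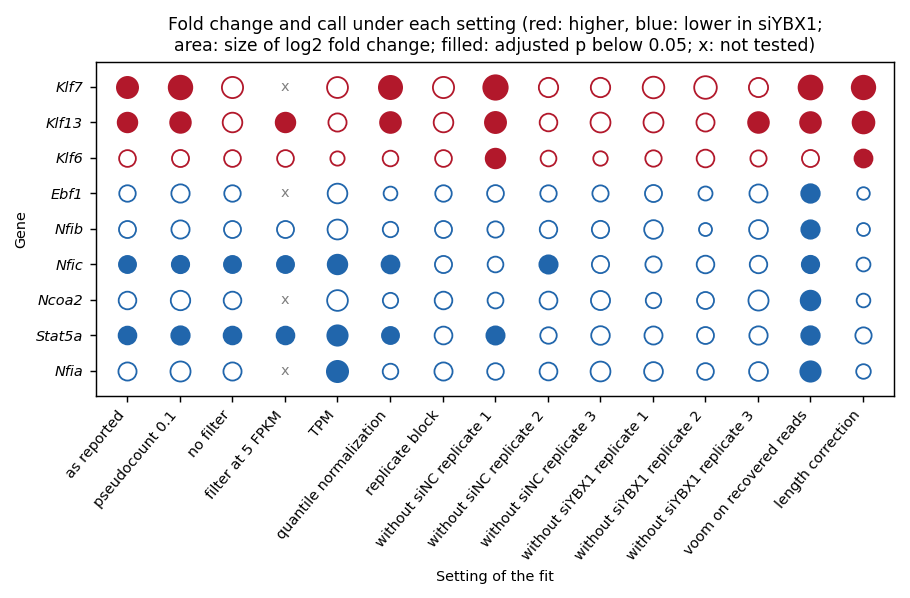
Log2 fold change of the 9 members called under any setting of the fit, with area as its size, red for higher and blue for lower in siYBX1, and filled where the adjusted p was below 0.05. The columns without siNC replicate 3, without siYBX1 replicate 1, without siYBX1 replicate 2 and with the replicate block hold no filled point, and voom on recovered reads holds 8.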

How the data were processed

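Libraries were made from 1.3 µg of Trizol-extracted RNA (per the labels). HISAT2, HTSeq, fastp and the build GRCm39 are listed, with neither version nor role, in the submitters' processing notes. The authors deposited FPKM values, 1 column per library, which column names (con or si with a number) tie to siNC and siYBX1. Strandedness, annotation and the handling of reads shared by similar genes are not given in the sources used here.

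The deposited FPKM moved in steps of 1 read, so library totals, gene lengths and whole reads were recovered for 100% of 16423 genes, with a tolerance of 0.02 reads. Totals came from 41 to 49 genes per library, using exonic lengths in GENCODE vM21. Of 11914 genes with a mean of 10 or more reads and an exonic length, 26.0% had a recovered length within 10% of it. A recovered length can be too small where a gene's reads share a divisor. With these totals 1 read on 2 kb is worth 0.0141 to 0.0156 FPKM.

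The two-sided test ran in limma 3.58.1 under R 4.3.3, with its trend option, on log2(FPKM + 1). It covered the 10341 genes whose mean reached 1 FPKM, with Benjamini-Hochberg adjustment over all of them, and was checked on simulated data. Every member was accounted for. Values in each library and an adjusted p were given for called members, Pparg, Cebpa, Cebpb and Cebpd. From each list up to the 2 largest called rises and falls were named. Alternatives were a pseudocount of 0.1, no filter, a filter at 5 FPKM, TPM, quantile normalization, a replicate block, voom on recovered reads (mean of at least 10), a loess correction for length (span 0.3) and leaving out each library. The members and lists were chosen with earlier results of these data known. Scripts ran in Python 3.11.15.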

Additional observations from a re-analysis of the deposited data

How the results depend on the processing

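The count of 4 called members was 2 without a filter and 8 with voom on recovered reads, and ranged from 0 to 4 when a library was left out. The 2 higher calls were 1 with a filter at 5 FPKM and 0 without a filter or with TPM, and ranged from 0 to 3 over left-out libraries. The 2 lower calls were 6 with voom and 0 after the length correction, and ranged from 0 to 1. Of all tested genes 1241 were called without a filter, and 1199 to 2026 without a library. The cause of the higher count with voom was not tested. The 3 pathway lists, with 7 partners, 8 factors and 12 targets called, had 4, 4 and 3 calls without a filter. Left-out libraries gave 2 to 7, 4 to 7 and 5 to 15. No called member changed sign under any of 14 alternatives, 5 of 33 uncalled members were called under at least 1, and 8 changed sign under at least 1.

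Same-numbered libraries did not deviate together. The correlations of their deviations from the group means over tested genes were -0.31, -0.13 and -0.25 for numbers 1 to 3. The 3 deviations of a group sum to 0 for each gene, and the labels state no shared culture or day. These correlations therefore cannot show whether the numbers pair the samples. With the replicate block 0 members were called, 0 higher and 0 lower, and 1346 of all tested genes. The lists then had 4, 5 and 5 calls.

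Members with few reads (Cebpa, Ebf2 and Klf5) limit what can be seen, since 1 read changes them most.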
